A study of Mus musculus with 3 samples.

Results

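Sox13, Sox4, Tox, Tox2 and Etv5, 5 transcription factor genes tied to γδ T cell development, were followed through the mouse thymus in 3 single-cell RNA libraries. The 5 genes were taken by their symbols from the raw count tables, which list 27734 genes in common. They were read in 21879 of 23283 deposited cells, those with 500 to 5000 detected genes and at most 7% mitochondrial counts. All cells came from thymi of C57BL/6 mice labelled 6 weeks old, 4 thymi pooled per library. They were depleted of cells bearing CD4 or CD8 and then sorted by surface markers, with markers of other lineages left out. The first run held DN and γδ thymocytes, the second DN1 and DN2, and the third DN1, DN2, DN3 and γδ (DN, double negative for CD4 and CD8). DN cells of the first run were taken whole, without a gate on CD44 and CD25, the surface markers of the DN stages. Each run is 1 library of another sort, so the runs are not replicates of one another and pooled animals cannot be separated.

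Sox13 and Sox4 belong to the Sox family, which bind and bend DNA through a high mobility group (HMG) box. Sox13 was described as an early gene of the γδ lineage and, with Sox4, is needed for the γδ cells that make IL-17, while Sox4 is also used by progenitors of T and B cells. Tox and Tox2 carry a related HMG box; Tox is needed for the CD4 lineage and for innate lymphoid cells. Etv5 is an ETS factor that follows ERK signaling in many tissues and is known from IL-17-producing γδ cells.

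The genes lie apart in the mouse genome (GRCm38), Sox13 at chr1:133382303-133424377 on the minus strand, Sox4 at chr13:28948919-28953713 (minus), Tox at chr4:6686353-6991557 (minus), Tox2 at chr2:163203125-163324170 (plus) and Etv5 at chr16:22381309-22439719 (minus). Promoter windows of 250 bases before a RefSeq start were read for 4 members; Tox was not matched. The RefSeq starts lie inside the gene spans given above, so 165 (Sox13), 149 (Etv5), 14 (Sox4) and 2 (Tox2) bases of the windows lie within the gene. The bases before the gene span are shown for Sox13, Etv5 and Tox2, the 3 members with the largest differences between γδ-like and DN3-like cells below. They are RefSeq sequences of GRCm38.p6, read 5′ to 3′ on the strand of the gene, at chr1:133424378-133424462, chr16:22439720-22439820 and chr2:163202877-163203124, and the farthest upstream of 1, 2 and 5 annotated starts was used. Capitals mark the single match to a Sox core motif.
Sox13: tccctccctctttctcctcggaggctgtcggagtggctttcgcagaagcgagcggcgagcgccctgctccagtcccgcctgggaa
Etv5: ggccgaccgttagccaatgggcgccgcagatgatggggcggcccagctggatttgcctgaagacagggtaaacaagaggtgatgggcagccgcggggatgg
Tox2: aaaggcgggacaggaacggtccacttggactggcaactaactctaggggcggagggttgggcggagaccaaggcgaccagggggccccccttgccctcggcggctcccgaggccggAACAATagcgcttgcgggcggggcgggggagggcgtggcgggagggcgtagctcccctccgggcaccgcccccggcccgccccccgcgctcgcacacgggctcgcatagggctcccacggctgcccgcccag
The whole windows were rich in G and C, at 72.4% for Sox13, 71.2% for Etv5 and 75.2% for Tox2, against a median of 52.4% over 32851 mouse promoters of this length, of which 7.83% reached 71%. The Sox4 window held 50.8%. The 4 windows were searched on both strands for the HMG core ACAAAG, the Sox core AACAAT, the ETS core GGAAGT and the EGR core GCGNGGGCG. The only match was the AACAAT of Tox2, on its own strand, 134 to 129 bases before its RefSeq start, a motif present in 9.42% of all these promoters. The other motifs occurred in 16.5% (ACAAAG), 19.7% (GGAAGT) and 4.70% (GCGNGGGCG) of them. These letters are a description of the windows and no measure of binding.

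Stages were assigned by clustering each run separately, with the 5 members and the gene lists used below left out of the clustering. Of 86 clusters, 6 were called Trdc-high: they held at least 800 CPM (UMIs of a gene scaled to a common library total) of Trdc, the constant gene of the δ chain, and under 50 CPM of Ptcra, the pre-Tα gene of DN3 cells. The rule also asked for under 100 CPM of Il2ra, the gene of CD25. Pooled per run, their Trdc level was 2260, 3008 and 1466 CPM in runs 1, 2 and 3, and their Il2ra level was at most 18.7 CPM. In single clusters Il2ra reached 25.1 CPM. A pair of further Trdc-high clusters that also held Il2rb, a receptor gene of type 1 lymphocytes, was kept apart. γδ receptor genes were not among the 10 leading genes of the Trdc-high clusters, so these keep the name of the rule. Other names were dropped where leading genes held more markers of another type, Trdc-high only at 3 such markers. The first-run cluster, with 1 DN2 marker, and a third-run cluster, with 1 DN4 marker, kept the name by this exception. Cpa3, a DN2 marker, stood at 354, 449 and 208 CPM in Trdc-high cells. In DN2-like cells it stood at 272, 408 and 287 CPM. DN3-like cells held 500, 344 and 336 CPM of Ptcra with 408, 411 and 612 CPM of Il2ra. The thresholds were chosen after the clusters were seen, and 19481 kept cells received a name. The label of the second run names DN1 and DN2 only, and per the study's methods its gate left out cells with surface γδ receptor, TCRβ, NK1.1 and B220. Yet 448 of its cells were Trdc-high and 922 DN3-like, against 123 and 1033 in the first run and 965 and 1607 in the third. Its NK-receptor-like clusters numbered 1881 cells and its B-like cluster 21. The gate of the third run also left out TCRβ, NK1.1 and B220, and 1088 of its cells were NK-receptor-like and 400 B-like. Transcript names and surface gates thus did not match in all cells, which was not tested further. Barcodes shared between libraries numbered 72 for the first and second, 1 for the first and the third and 0 for the second and the third. Total counts of unique molecules (UMIs) were 39947415, 52797915 and 98533329, with medians of 5989.5, 4844 and 8507 per kept cell, and the tables list 28692, 28692 and 32285 genes. The methods name 2 reagent kit versions and 2 versions of the counting software without the run of each, so sort, depth and kit cannot be told apart between runs.

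Among the named populations Sox13 was highest in Trdc-high cells in every run. Its level there was 265 CPM (95% Poisson interval 220 to 316) in the first run, 283 (256 to 312) in the second and 322 (309 to 334) in the third. These 3 intervals lay close together although the sorts differed. In DN3-like cells Sox13 stood at 12.6, 9.14 and 17.7 CPM, and in DN2-like cells at 14.7, 9.08 and 16.1 CPM. Type 17-like cells, mature lymphocytes named from Icos and Il17re, held 21.0 CPM in the second run and 19.2 in the third. NK-receptor-like cells, largely Trac+ lymphocytes of the same sorts, held 2.62 and 6.80 CPM. No named population outside the Trdc-high clusters therefore came near the Trdc-high level, the nearest single cluster being a type 17-like one at 41.6 CPM against 143 to 524 CPM over the 6. One unnamed cluster of 28 cells with high doublet scores reached 243 CPM.

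Etv5 followed the same populations but ordered the runs otherwise. Trdc-high cells held 289 CPM (242 to 342) in the first run, 414 (381 to 449) in the second and 198 (188 to 208) in the third. The second run lay above both others and the third below both, with intervals that did not overlap. DN3-like cells held 2.81, 3.53 and 1.64 CPM and DN2-like cells 4.06, 5.40 and 2.44 CPM. Mature type 17-like cells were at 1.62 (0.525 to 3.78) and 0.808 (0.220 to 2.07) CPM of Etv5, with intervals that reached the DN3-like values of these runs. Their Sox13, given above, was higher than in DN3-like cells in the second run and near that level in the third.

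Tox2 was the member most restricted to Trdc-high clusters in rank, which took the 6 highest places of all 86 clusters. Its level was 158 CPM (123 to 198), 93.4 (78.0 to 111) and 106 (99.0 to 113), highest in the smallest population, the 123 cells of the first run. In DN3-like cells it was 1.68, 3.74 and 1.80 CPM, resting on 6, 18 and 22 UMIs in all. A single Tox2 UMI was counted among 1881 NK-receptor-like cells of the second run.

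Tox was present at a low level in every T-lineage population and raised in Trdc-high cells, at 258 CPM (214 to 309), 335 (305 to 367) and 267 (256 to 279). DN3-like cells held 43.8, 50.5 and 55.2 CPM, DN2-like cells 52.4, 57.6 and 65.9 CPM, and NK-receptor-like cells 33.0 and 52.1 CPM. Unlike Sox13 and Etv5, Tox stayed high in the Trdc-high Il2rb+ cells. It was at 232 CPM (200 to 267) in the second run, below the Trdc-high level there, and at 274 (252 to 298) in the third, where the intervals overlapped. Sox13 in those Il2rb+ cells was 5.98 (1.94 to 13.9) and 8.38 (4.88 to 13.4) CPM, and Etv5 11.95 and 20.2 CPM. Tox2 in them was 22.7 and 35.5 CPM, the latter near the lowest Trdc-high cluster at 41.6. Their Sox4 was 228 and 623 CPM, in both runs below the DN3-like level given next. The Il2rb+ pair thus held Tox with little Sox13 or Etv5.

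Sox4 had the widest distribution. Trdc-high cells held 597 CPM (528 to 672), 825 (778 to 874) and 1077 (1055 to 1100), DN3-like cells 482, 341 and 748, and DN2-like cells 386, 306 and 532. Progenitor-like cells, named from Kit and Cd34, lay in the same range at 492 and 798 CPM. Mature populations lay far below, with 8.25 and 30.5 CPM in NK-receptor-like cells and 39.8 and 46.8 CPM in type 17-like cells. B-like cells of the third run held 300 CPM, and 1 of their clusters, 109 cells with Vpreb3, a gene of B cell precursors, held 978 CPM. Only 2 of the 6 Trdc-high clusters ranked among the 6 clusters highest in Sox4, against 5 for Sox13, Etv5 and Tox. That rank pools the runs, and Sox4 levels were higher in the third. Within the first run the Trdc-high cluster was highest in Sox4, at 597 CPM with the next at 581. Within the second it was also highest, at 825 CPM with the next at 536.

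**Figure D1:**
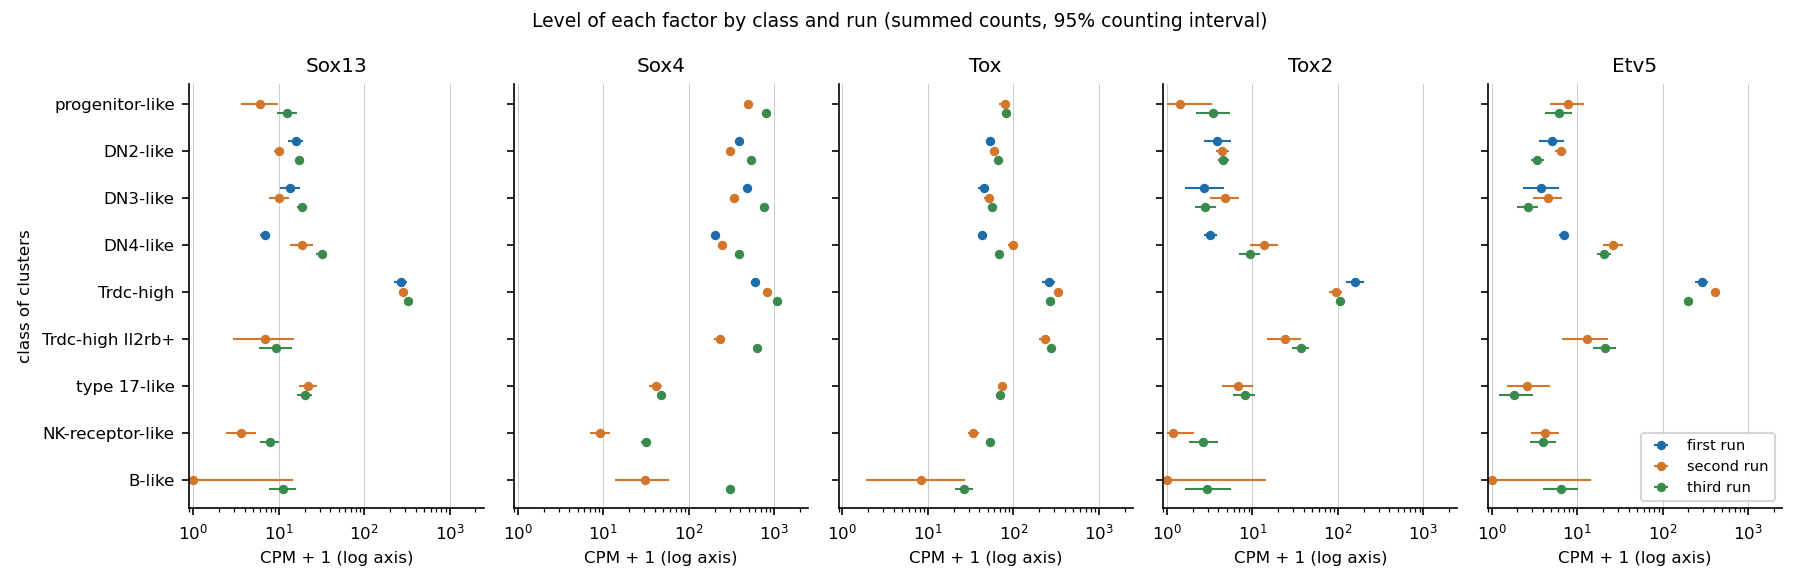
Level of each of the 5 members (CPM of summed counts, log axis, 95% Poisson interval for counting error) in each named population, with 1 point per run. Sox13, Etv5 and Tox2 stand apart in Trdc-high cells in all 3 runs, Tox is also high in Trdc-high Il2rb+ cells, and Sox4 is spread over progenitor-like, DN2-like, DN3-like and Trdc-high cells.

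Within the third run the 4 Trdc-high clusters differed in each member. The largest, of 348 cells, held 524 CPM of Sox13, 335 of Etv5 and 182 of Tox2. A cluster of 231 cells that also held Il17re (79.2 CPM), the receptor subunit gene of the type 17 marker list, had 439 CPM of Sox13, the highest Sox4 (1669) and Tox (360) of the 6, and the lowest Tox2 (41.6). The 257 cells of another cluster held 181 CPM of Sox13 and 81.4 of Etv5. The 129 cells led by cell division, with 990 CPM of Mki67 and a median of 18634 UMIs, held 143 CPM of Sox13 and 614 of Sox4. Sox13 thus varied by more between Trdc-high clusters of this 1 library than between the 3 runs. These clusters are parts of 1 library, and their differences were not tested.

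**Figure D2:**
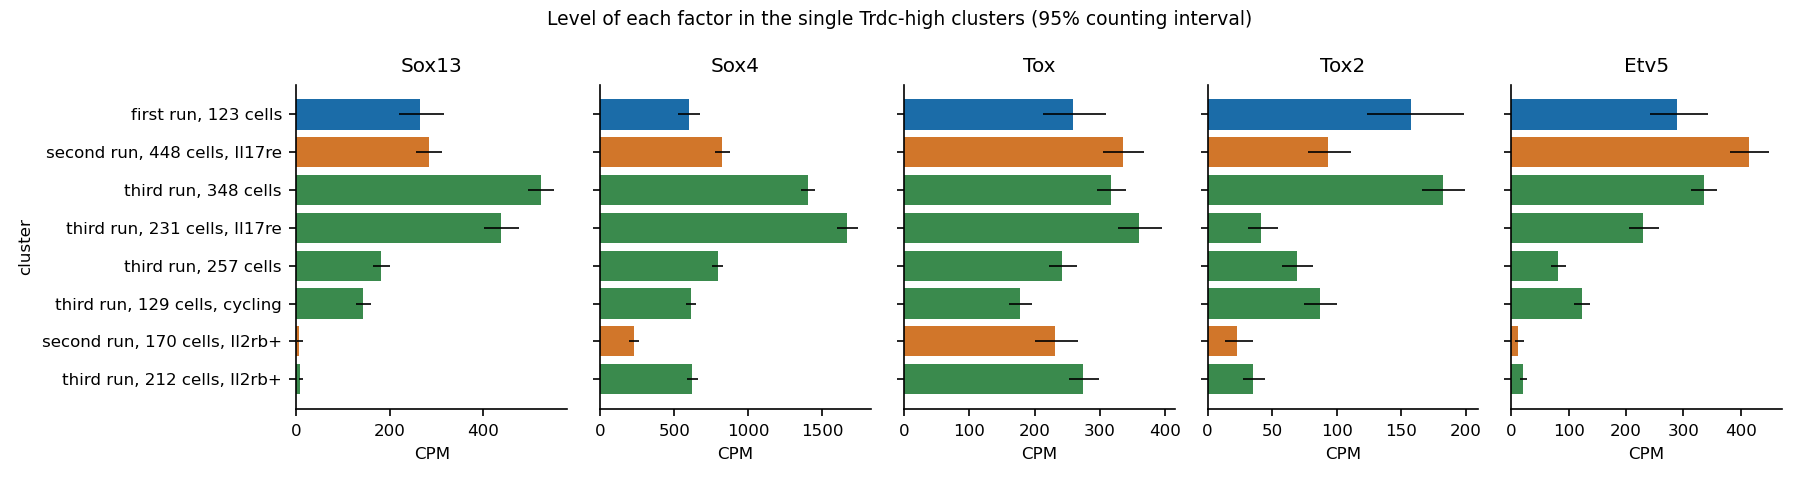
Level of each member (CPM with 95% Poisson interval) in the 8 Trdc-high clusters, including the 2 that held Il2rb, by run. The Il2rb+ clusters lie at 5.98 and 8.38 CPM of Sox13 where the other 6 lie between 143 and 524, while Tox overlaps between the groups.

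All Trdc-high cells, Il2rb+ included (123, 618 and 1177 cells), are called γδ-like below, by the Trdc rule and not by surface receptor. The type 17-like name was given before that rule. A type 17-like cluster of 158 second-run cells met the Trdc, Ptcra and Il2ra limits and was thus left out. It held 1429 CPM of Trdc, 41.6 of Sox13, 1.89 of Etv5 and 1.89 of Tox2. The γδ-like cells of the second run came from a gate that left out surface γδ receptor, and its Il2rb+ cells also held 579 CPM of Trac. Counts of γδ-like and of DN3-like cells were summed per run. They were fitted by edgeR's quasi-likelihood test with the run as a block and Benjamini-Hochberg adjustment over 8185 genes. Over the genes shared by the runs, the 3 per-run ratios were 103, 74.3 and 98.8 for Etv5, 93.4, 17.8 and 50.9 for Tox2, 20.9, 19.5 and 14.6 for Sox13, 5.89, 5.86 and 4.86 for Tox, and 1.24, 1.76 and 1.32 for Sox4. All 15 ratios were above 1, and those of Sox4 were small. All 5 members were higher in γδ-like cells, where 12.1% of genes tested were called and 5.50% were called higher. The edgeR log2 fold changes were 6.49 (SE 0.19, adjusted p = 2.43e-05) for Etv5, 5.35 (SE 0.36, adjusted p = 0.000735) for Tox2 and 4.14 (SE 0.17, adjusted p = 0.000117) for Sox13. For Tox it was 2.46 (SE 0.14, adjusted p = 0.000363 by edgeR) and for Sox4 0.51 (SE 0.13, adjusted p = 0.0442 by edgeR). The members' median was 4.14 against -0.05 over all genes tested. The call for Sox4 was lost without the first or the third run and without the Il2rb+ clusters (log2 fold change 0.73, edgeR adjusted p = 0.059). The clusters come from these same cells, and genes that vary with the members were among the clustering genes. When single cells were instead taken by UMIs of Trdc, Trac, Ptcra, Il2ra, Cpa3 and Cd8b1, edgeR called 27 genes, 4 of them members, with log2 fold changes of 5.26 (Etv5), 4.17 (Tox2), 3.02 (Sox13) and 1.68 (Tox), while Sox4 gave 0.28.

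**Figure D3:**
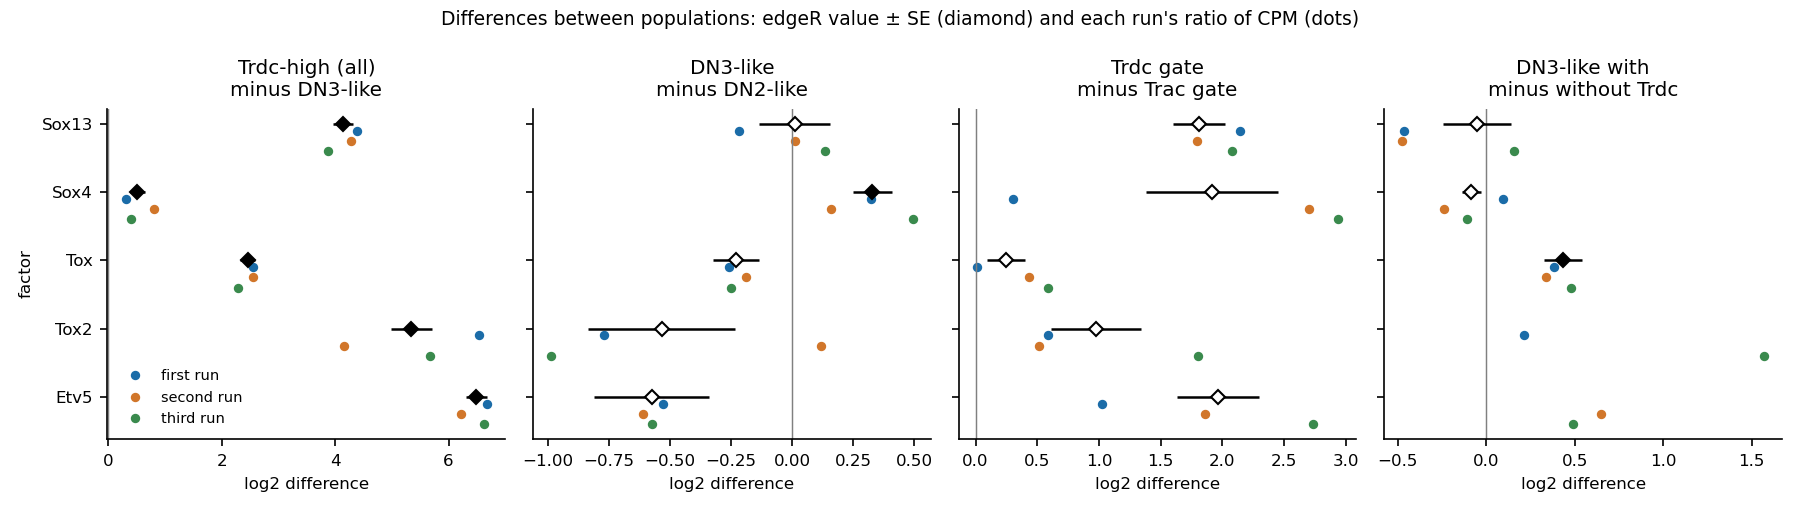
Log2 fold change of each member with its standard error (edgeR) in the 4 comparisons, filled where the adjusted p was under 0.05. In the comparison of γδ-like with DN3-like cells the values run from 0.51 for Sox4 to 6.49 for Etv5, and in the other 3 comparisons they lie between -0.58 and 1.97.

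The fixed lists of related genes moved with the members in part. Of 25 relatives of the Sox, Tox, Etv and Tcf families, 8 could be tested, of which 3 were higher in γδ-like cells, Sox5 (log2 fold change 4.81), Lef1 (1.53) and Etv3 (0.83), and 1, Tox3, was lower (-2.30). Sox5, a close relative of Sox13, stood at 15.5, 16.3 and 44.8 CPM in γδ-like and 0.568, 0.628 and 1.49 CPM in DN3-like cells. Tox3 went the other way within its own family, at 0, 1.36 and 7.36 CPM against 6.82, 8.37 and 31.7 CPM. Of 15 genes of type 17 γδ cells, 9 were tested, 7 rose and Bcl11b fell (-0.49). Those that rose included Maf (5.27) and Rora (4.97), factors of the IL-17 program, Blk (4.52), a Src family kinase of these cells, and 5830411N06Rik (3.35), a scavenger receptor gene. Of 15 genes of ERK and receptor signaling, the pathway upstream of Etv5 elsewhere, 13 were tested, 9 rose and 0 fell. Cd5 (3.87), Spry2 (3.22), Nr4a1 (3.21), Id3 (3.16) and Egr2 (2.75) led, Cd5 and Nr4a1 being genes of receptor signal strength, Spry2 a feedback inhibitor of ERK and Id3 an inhibitor of E proteins. Without the Il2rb+ clusters Spry2 (log2 fold change 1.30, edgeR adjusted p = 0.141) and Bcl11b (-0.22, adjusted p = 0.485) were no longer called, and Egr2 did not enter the test. Egr2 was 6.56, 0.724 and 3.96 CPM in Trdc-high cells of the 3 runs and 1.12, 0.831 and 1.06 CPM in DN3-like cells. In Il2rb+ cells it was 16.7 CPM in the second run and 19.2 in the third. The median log2 fold change was 3.35 over the type 17 genes tested and 1.36 over the ERK genes tested, beside -0.05 over all genes. Some of these genes were in earlier results of the same cells, and their counts are a description.

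Along the DN stages the members' values depended on how the cells were chosen. DN3-like cells were compared with DN2-like cells (1268, 2718 and 1923 cells) in the same manner over 8798 genes, of which 20.2% were called and 8.59% called higher. Sox4 was the only member called, with a log2 fold change of 0.33 (SE 0.08, edgeR adjusted p = 0.0274) and ratios of 1.25, 1.12 and 1.41. Its call was lost in DESeq2 (adjusted p = 0.0525) and without the first or the third run. The classes also differed in Mki67, a gene of cell division. It stood at 110, 113 and 448 CPM in DN2-like cells and at most 22.8 CPM in DN3-like cells. Single DN2-like clusters held 333 to 502, 218 to 462 and 372 to 767 CPM of Sox4 in the 3 runs. Single DN3-like clusters held 408 to 581, 213 to 471 and 648 to 835 CPM. The part of cell division in the Sox4 difference was not tested. Sox13 gave 0.01 (edgeR adjusted p = 0.968), Tox -0.23 (0.116), Tox2 -0.53 (0.240) and Etv5 -0.58 (0.120). With cells taken by marker UMIs in place of clusters edgeR called Etv5 (-2.02), Tox2 (-1.31), Sox13 (-0.69) and Tox (-0.68) lower, and Sox4 turned to -0.10. At a clustering resolution of 1 the second run had no DN3-like cells, so that fit rests on the first and the third run. It called 3293 of 8958 genes, Etv5 (-1.15) and Tox (-0.34) among them. DESeq2 called 1126 genes here, 317 higher, against 1775 and 756 by edgeR. Of the relatives, Lef1, an HMG factor that works with Tcf7, rose (1.99) and Sox5 fell (-1.72). Of the type 17 genes Tcf12 (0.60) and Bcl11b (0.41) rose while Cd163l1 (-0.90) and 5830411N06Rik (-0.68) fell. Of the 12 ERK genes tested Dusp4 rose (1.32) and Spred2 (-0.74) and Dusp6 (-0.69) fell.

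DN4-like cells, named from Cd28 and Ptcra with low Il2ra, had 5.90 CPM of Sox13 and 201 CPM of Sox4 in the first run, the only run whose sort took all DN cells. Those of the second and the third runs, 140 and 287 cells, held 17.6 and 30.8 CPM of Sox13 and 25.6 and 19.9 CPM of Etv5. Mki67, a gene of cell division, was near even in DN4-like cells of the 3 runs, at 140, 140 and 118 CPM. Their Il2ra stood at 48.6, 111 and 164 CPM. Cd8b1, of the DN4 marker list, was at 17.4 to 212 CPM over the first-run clusters and at 19.0 and 10.1 CPM in the later runs. First-run DN4-like cells held 6.06 CPM of Etv5. The 3 values therefore do not describe a single population, and no stage trend past DN3-like was tested.

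A division by receptor transcripts alone needs no clusters. Cells with at least 1 Trdc UMI and no Trac UMI (Trdc gate, 3674, 4626 and 4057 cells) were set against cells with Trac, the α chain constant gene, and no Trdc (98, 2381 and 1305 cells). Sox13 stood at 16.0, 18.1 and 53.4 CPM in the Trdc gate and 3.63, 5.23 and 12.7 CPM in the Trac gate. Etv5 stood at 12.3, 17.6 and 27.0 CPM against 6.05, 4.86 and 4.07 CPM. Both stood higher in the Trdc gate of each run, by ratios of 4.41, 3.46 and 4.22 for Sox13 and 2.03, 3.62 and 6.66 for Etv5. The first-run interval for Etv5 was 0.862 to 6.30, which included 1. The Trdc gate was otherwise mostly DN cells, DN2-like ones making up 27.3%, 48.6% and 41.2% of it. In the first run DN4-like cells were its largest part, at 43.3%. Trdc-high cells made up 2.48%, 7.004% and 15.8% of the Trdc gate, whose part in the result was not tested. Sox4 was nearly even in the first run (276 against 224 CPM) and apart in the second (328 against 50.3) and the third (622 against 81.1). Tox stood at 56.0, 69.6 and 92.1 CPM against 55.6, 51.5 and 61.3 CPM, and Tox2 at 5.46, 6.27 and 15.9 CPM against 3.63, 4.38 and 4.55 CPM. NK-receptor-like cells made up 71.1% and 64.9% of the Trac gate in the second and the third run and type 17-like cells 21.7% and 25.2%, so the Trac gate was mostly mature lymphocytes there. In the first run it held 98 cells, 78.6% of them DN4-like, and Sox13 rested on 3 UMIs in it and Etv5 on 5.

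Over the 3 runs edgeR called none of 9140 genes between the gates (0% called), although 2130 had an unadjusted p under 0.05 and DESeq2 called 292. The log2 fold changes were 1.81 (SE 0.21) for Sox13, 1.97 (SE 0.33) for Etv5, 1.92 (SE 0.53) for Sox4, 0.98 (SE 0.37) for Tox2 and 0.25 (SE 0.15) for Tox, with edgeR adjusted p of 0.132, 0.132, 0.157, 0.204 and 0.358. DESeq2 gave adjusted p of 0.000159 for Sox13, 0.00789 for Etv5 and 0.0313 for Sox4. Without the first run edgeR called 4484 of 9507 genes, so a call was common there, and all 5 members were among them. Their log2 fold changes were 1.83 (Sox13), 2.17 (Etv5), 2.67 (Sox4), 1.11 (Tox2) and 0.36 (Tox). With all 3 runs and at least 2 UMIs of the gate gene edgeR called 2177 of 8942 genes. Sox13 (2.02), Etv5 (2.27) and Sox4 (2.28) were among them. The first-run Trac gate was then 28 cells, with 0 UMIs of Sox13 and 1 of Etv5. The calls between the gates thus changed with the runs, the tool and the gate. Cells with UMIs of both genes held the highest level of Sox13 of the 4 gates in the second and the third run, at 31.9 and 122 CPM, and Trdc-high cells made up 13.6% and 40.6% of them.

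**Figure D4:**
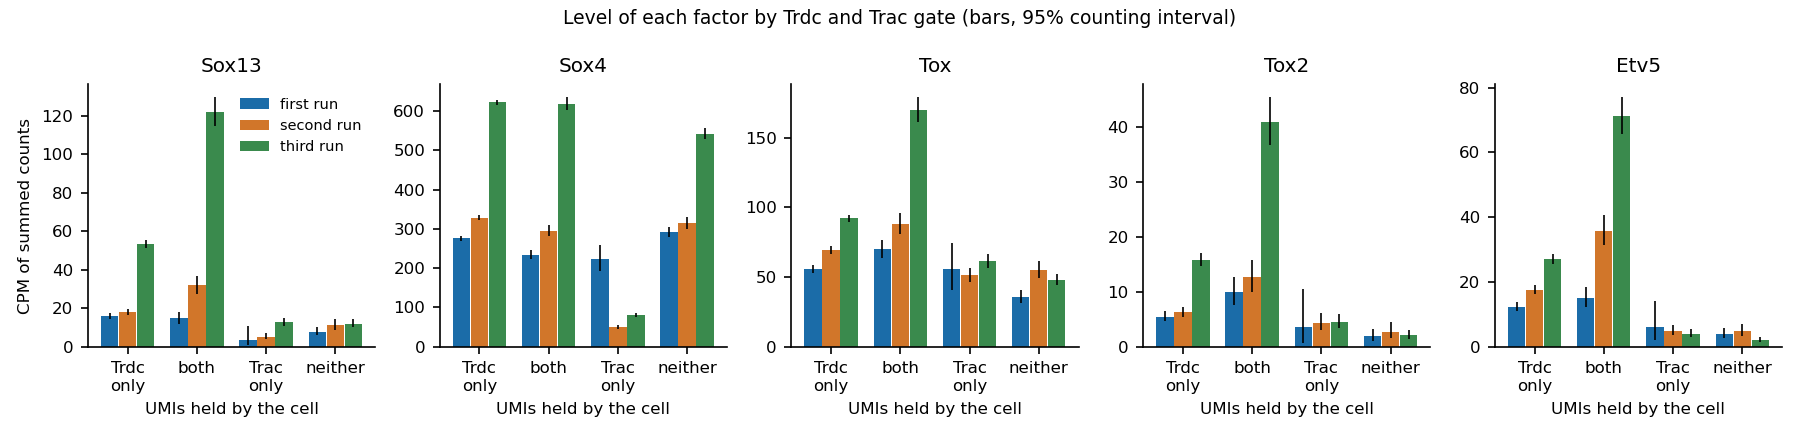
Level of each member (CPM with 95% Poisson interval) in cells with UMIs of Trdc only, Trac only, both or neither, by run. In the third run Sox13 is at 53.4 CPM with Trdc only, 12.7 with Trac only and 122 with both, and Tox differs least between the first 2 gates.

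Sox13 was also set against Trdc within the mature populations. Type 17-like cells of the second run held 65.3 CPM (46.0 to 89.996) of Sox13 where a Trdc UMI was present (151 cells) and 11.1 CPM (7.37 to 16.0) where none was (629 cells). These cells were 2 clusters, one of 158 cells with 1429 CPM of Trdc and 41.6 of Sox13 and one of 622 cells with 74.2 CPM of Trdc and 16.8 of Sox13, so the division is in part one between clusters. In the third run the same division gave 32.0 CPM (19.8 to 48.9) in 58 cells and 17.2 CPM (13.5 to 21.6) in 388 cells, with intervals that overlapped. NK-receptor-like cells of the third run held 20.7 CPM (12.9 to 31.3) with and 4.14 CPM (2.62 to 6.21) without a Trdc UMI. Those of the second run held 3.09 CPM (0.0782 to 17.2) on 1 UMI with and 2.59 CPM (1.38 to 4.44) without. The values with Trdc were the larger in these 4 divisions, and their differences were not tested.

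DN3-like cells were then divided by Trdc. Cells with one (620, 655 and 1056) and without one (413, 267 and 551) differed in 32 of 7898 genes by edgeR (0.405% called), 637 had an unadjusted p under 0.05 and DESeq2 called 0. With DN3-like cells taken by marker UMIs instead, edgeR called 436 genes. Of the members 3 passed the filter on low counts, and 1, Tox, was called higher, at 0.43 (SE 0.11, edgeR adjusted p = 0.0204). Tox stood at 48.5, 53.7 and 61.2 CPM with and 37.2, 42.5 and 44.0 CPM without a Trdc UMI, higher in 3 of 3 runs. The counting intervals of its ratio included 1 in the first (0.919 to 1.87) and second run (0.924 to 1.76). They did not in the third (1.17 to 1.67). The call was lost in DESeq2 and without the first or the third run. Cells with a Trdc UMI were also the deeper ones in each run, with medians of 3046, 4873 and 7465 UMIs against 2888, 4075 and 6889, whose part in the result was not tested. Single DN3-like clusters also differed in Trdc, at 196 to 752, 495 to 599 and 165 to 386 CPM in the 3 runs. The cluster highest in Trdc was highest in Tox in each run, at 61.9, 60.3 and 63.7 CPM. The division by Trdc is thus in part one between clusters, whose part in the result was not tested. Sox13 gave -0.05 and Sox4 -0.09, neither called. Lef1 fell (-0.52) and Tcf7 (0.22) and 5830411N06Rik (1.04) rose among the listed genes.

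Per cell, detection was compared after each cell was thinned to 2000 UMIs. Among Trdc-high cells a Sox13 UMI was seen in 44.7% (35.7 to 53.9, exact binomial 95% interval), 38.6% (34.1 to 43.3) and 44.7% (41.5 to 47.9) of cells in the 3 runs. Unthinned, the shares were 56.9%, 52.9% and 73.9%, so the third run stood apart before thinning and not after it. In B-like cells of the third run, taken as the reference for free RNA, Sox13 was seen in 1.01% of thinned cells. Among NK-receptor-like cells it was seen in 0.638% and 1.38%, and whether that share is free RNA was not tested. DN3-like cells showed 2.42%, 1.52% and 3.002%. Etv5 was seen in 40.7%, 52.5% and 29.2% of Trdc-high cells (unthinned 61.0%, 59.6% and 57.7%) and in 0.0968%, 0.759% and 0.188% of DN3-like cells. The DN3-like shares of Etv5 are at or near those of NK-receptor-like cells, 0.744% and 0.644%. Unthinned, DN3-like cells with a Trdc UMI held 10, 14 and 15 Etv5 UMIs in the 3 runs, and those without held 0, 3 and 5. That is 4.49, 3.91 and 1.82 CPM against 0, 2.50 and 1.29 CPM. Whether these few UMIs are background was not tested. Tox2 was seen in 26.8%, 12.5% and 15.1% of Trdc-high cells, Tox in 45.5%, 49.1% and 42.1%, and Sox4 in 64.2%, 73.4% and 79.4%.

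Trdc-high cells were 2.23%, 5.06% and 12.8% of thinned cells, yet they held 29.5%, 66.2% and 81.6% of all Etv5 UMIs in the 3 runs. They held 21.3%, 43.7% and 67.5% of Sox13 UMIs and 32.6%, 38.6% and 72.8% of Tox2 UMIs. For Tox the shares were 5.39%, 13.0% and 30.7%, and for Sox4 2.53%, 7.75% and 20.7%. Etv5, Sox13 and Tox2 transcripts thus came in larger part from Trdc-high cells than those of Tox and Sox4 in each run. In the first run DN4-like cells, 45.7% of thinned cells, nonetheless held more of the Etv5 UMIs (35.5%) than Trdc-high cells. For Sox13 in that run DN4-like cells (27.3%) and unnamed cells (28.0%) each held more than Trdc-high cells.

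At this depth most Trdc-high cells nonetheless showed few of the factors at once. Shares seen rise with depth, as the unthinned ones of Sox13 and Etv5 given above show. At 2000 UMIs none of Sox13, Etv5 and Tox2 was seen in 27.6%, 28.1% and 39.4% of them, 1 in 40.7%, 43.8% and 36.4%, 2 in 23.6%, 24.6% and 19.98%, and all 3 in 8.13%, 3.57% and 4.18% (10, 16 and 40 cells). All 5 members were seen together in 1, 5 and 15 cells. In DN3-like cells all 3 together were seen in 0 of 1033, 922 and 1599 cells, which allows shares of up to 0.290%, 0.325% and 0.188%.

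Etv5 was seen more often in Trdc-high cells with a Sox13 UMI than in those without, at 49.1% (35.4 to 62.9) of 55 against 33.8% (22.8 to 46.3) of 68 in the first run. The second run gave 57.2% (49.5 to 64.7) of 173 against 49.5% (43.4 to 55.5) of 275, and the third 37.2% (32.6 to 42.0) of 427 against 22.7% (19.2 to 26.5) of 529. The direction was the same in 3 of 3 runs, and the intervals were apart in the third run. Tox2 was seen in 29.1%, 13.3% and 20.1% of cells with Sox13 and in 25%, 12% and 11.0% of those without. Tox was even in the first run (45.5% against 45.6%) and more often seen with Sox13 in the second (54.3% against 45.8%) and the third (47.5% against 37.6%). Sox4 was seen in 69.1%, 72.8% and 87.8% of cells with Sox13 and in 60.3%, 73.8% and 72.6% of those without, so the second run had no such difference. Over all kept cells the Etv5 shares were 18.6%, 32.9% and 26.1% with Sox13 and 1.42%, 2.36% and 2.36% without. Among DN3-like cells with Sox13, 0 of 25 in the first run and 0 of 48 in the third held Etv5, which allows shares of up to 12% and 6.25%, so a pairing there was not detectable at this depth. The relatives Tox and Tox2 showed no shared direction. Tox was seen in 36.4%, 33.9% and 45.1% of Trdc-high cells with Tox2 and in 48.9%, 51.3% and 41.5% of those without.

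Levels of the other members were also set against the number of Sox13 UMIs per cell. At 2000 UMIs per cell, Trdc-high cells with 0, 1 and at least 2 Sox13 UMIs (529, 244 and 183 cells) held 1028, 1398 and 1628 CPM of Sox4, and 158, 227 and 268 CPM of Etv5. Tox2 stood at 60.5, 117 and 123 CPM in the same cells, and Trdc at 1330, 1614 and 1747 CPM, whose part in the result was not tested. In the first run the 68 cells with 0 and 41 cells with 1 Sox13 UMI held 206 and 280 CPM of Etv5, 191 and 134 CPM of Tox2 and 294 and 256 CPM of Tox, with overlapping intervals. In the second run Etv5 was at 391, 429 and 521 CPM with overlapping intervals, and Sox4 at 860, 913 and 766 CPM had no such order. The third run is the one whose Trdc-high cells form 4 clusters that differ in all of these genes.

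**Figure D5:**
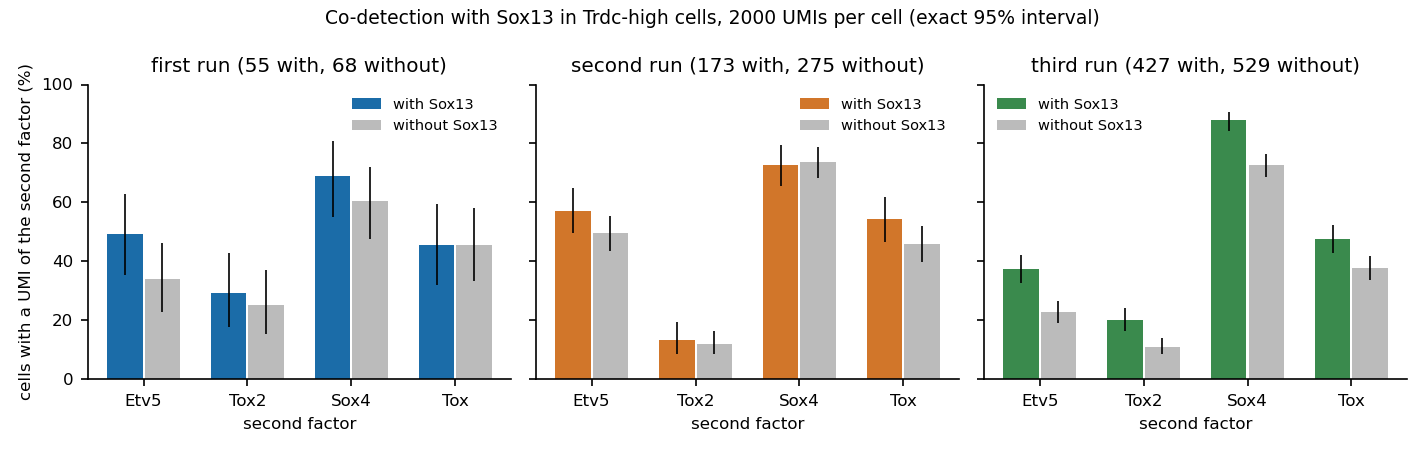
Share of Trdc-high cells with a UMI of Etv5, Tox2, Tox or Sox4 among cells with and without a Sox13 UMI, at 2000 UMIs per cell, by run, with exact 95% binomial intervals. For Etv5 the cells with Sox13 lie above those without in each run, at 37.2% against 22.7% in the third.

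Over 21 populations by run of at least 50 cells, and among 8399 genes, the genes whose log2(CPM + 10) was most like each member were listed. For Sox13 they were Wfs1 (Pearson r 0.96), Trdv2-2 (0.93), a variable segment of the δ chain, Exoc4 (0.93), Slc15a1 (0.93) and Etv5 (0.92). For Etv5 they were Slc15a1 (0.97), Wfs1 (0.96), Trdv2-2 (0.95), Tox2 (0.94) and Ptgir (0.93), and for Tox2 Slc15a1 (0.95), P2rx7 (0.95), Trdv2-2 (0.94), Etv5 (0.94) and Actr10 (0.93). Sox13 with Tox2 gave 0.87, below Tox with Tox2. Tox was most like Mex3b (0.92), Tox2 (0.90), Dbn1 (0.89), Ikzf2 (0.87) and P2rx7 (0.87). Sox4 had another set, Mbtd1 (0.90), Cux1 (0.90), Ccdc28b (0.89), Mpp1 (0.89) and Prdx2 (0.89), and its r with Sox13 was 0.44. The points share libraries and depth and several listed genes served in the clustering, so these values are a description without a test.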

How the data were processed

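The authors deposited raw UMI counts per gene and cell for each 10x Genomics 3′ library, made with Cell Ranger and the mm10 genome, with R 3.6.3 and Seurat 2.3 also named in the submitters' processing notes. Single-cell 3′ counts sample the end of a transcript, so levels were compared within a gene and not between genes. Above 7% mitochondrial counts were 8, 31 and 762 cells of the first, second and the third run, above 5000 genes 3, 2 and 552, and under 500 genes 0, 2 and 199, some failing more than one limit. Each run was clustered with scanpy 1.11.5 and leidenalg 0.10.2 (2000 variable genes, 15 components, resolution 2). Scrublet called 0, 431 and 209 doublets, which were kept in the main analysis and left out in an alternative that dropped the 8% highest scores. Counts were summed per run and population with at least 20 cells and tested with edgeR 4.0.16 (R 4.3.3; TMM, filterByExpr, adjusted p under 0.05); genes used in clustering, and the gate genes, were not tested. The fits were tested on simulated data. DESeq2 1.42.0 was an alternative. Since each run is 1 library, edgeR p-values set a difference against a spread over the 3 runs that was largely estimated from other genes. The fits left 2 residual degrees of freedom per gene. The prior ones were 5.16 (γδ-like against DN3-like), 6.02 (DN3-like against DN2-like) and 3.13 (gates). For DN3-like cells divided by Trdc the prior was infinite, so that spread was not the gene's own. Intervals cover counting error only. The 5 genes and the gene lists were chosen with earlier results of these data known. Named were the 5 members, the 5 genes most like each, and the genes called from each list, at most 5 by size in each direction. One listed gene that this rule would name is not reported here. Gene positions are from GENCODE vM21 and promoters from RefSeq.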

Additional observations from a re-analysis of the deposited data

How the results depend on the processing

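With 1 library per sort, depth and sort cannot be told apart between runs, low genes such as Tox2 in DN3-like cells rest on few UMIs, and population names depend on thresholds set after the clusters were seen. No paired analysis was possible because each group is 1 library, numbered 1, though the run block of the main fit pairs the populations of a library. For γδ-like against DN3-like cells the calls of Etv5, Tox2, Sox13 and Tox held under every alternative run, including DESeq2, RLE size factors, no low-count filter, fewer doublets, a 5% mitochondrial limit and the added omission of the Il2rb+ clusters. Halving the clustering resolution left only the third run with both classes, so that fit was not run.

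The 990 genes called there became 56 without the run block, 27 with per-cell marker gates, 649 without the Il2rb+ clusters and 494 to 1602 when leaving out one run. Sox4 was then 0.48, 0.28, 0.73 and 0.34 to 0.61. For DN3-like against DN2-like cells the 1775 genes became 1126 in DESeq2, 1 without the block and 772 with marker gates. They became 3293 at a resolution of 1, without the second run, and 814 to 2736 when leaving out one run. Sox13 there changed sign about 0, at -0.0289 (DESeq2), -0.0189 (RLE), -0.0247 (no filter), -0.0218 (fewer doublets), -0.0066 (5% mitochondrial limit), -0.69 (gates) and -0.097 to 0.032 without a run. Sox4 was 0.30 (DESeq2), 0.36 (no block), -0.10 (gates) and 0.24 to 0.39 without a run. Tox was called at a resolution of 1 (-0.34) and with gates (-0.68), Etv5 likewise (-1.15 and -2.02), and Tox2 with gates (-1.31) and in the range of -0.96 to -0.15 without a run. Tox ranged from -0.28 to -0.22 and Etv5 from -0.64 to -0.58.

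Between the Trdc and Trac gates the 0 genes became 292 (DESeq2), 123 (no filter), 2177 (at least 2 UMIs of the gate gene) and 0 to 4484 without a run. Sox13 passed at 1.74, 1.89 and 2.02 in these 3 settings, Etv5 at 1.81, 2.04 and 2.27, and Sox4 at 1.84 in DESeq2 and 2.28 with 2 UMIs. Without a run Sox13 was 1.71 to 1.98, Sox4 1.37 to 2.67, Tox 0.0824 to 0.36, Tox2 0.35 to 1.35 and Etv5 1.37 to 2.17. At a resolution of 1 the second run had no DN3-like cells here either. For DN3-like cells with and without Trdc the 32 genes became 0 in DESeq2, 0 without the block, 5 at a resolution of 1, 436 with gates and 2 to 15 without a run. Tox was 0.41, 0.40 and 0.42 in the first 3 of these and 0.35 to 0.46 without a run, and Sox13 changed sign at 0.0482 (5% limit) and ranged from -0.47 to 0.0485 without a run. The cause of these changes was not tested. Genes named from the lists gave 360 alternative values, of which 294 kept their call and direction, 66 lost the call and 0 changed direction.

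Leaving out high doublet scores moved Sox4 in the Trac gate to 34.6 (second run) and 69.0 CPM (the third), and the third run's values to 51.3 (Sox13) and 25.2 CPM (Etv5) in the Trdc gate and 352 (Sox13), 1186 (Sox4), 284 (Tox) and 212 CPM (Etv5) in Trdc-high cells. Keeping cells above 5000 genes gave 47.2 (Sox13), 579.9 (Sox4), 87.3 (Tox), 14.8 (Tox2) and 24.4 CPM (Etv5) in the third-run Trdc gate. Thinning to 1000 UMIs gave shares of Trdc-high cells in the 3 runs of 21.1%, 27.7% and 26.3% (Sox13), 42.3%, 54.5% and 63.2% (Sox4), 17.1%, 29.7% and 24.1% (Tox), 16.3%, 6.70% and 8.94% (Tox2) and 28.5%, 29.5% and 18.9% (Etv5). Unthinned shares were 56.9%, 52.9% and 73.9% (Sox13), 82.1%, 81.5% and 95.8% (Sox4), 61.0%, 63.2% and 81.8% (Tox), 38.2%, 20.1% and 40.0% (Tox2) and 61.0%, 59.6% and 57.7% (Etv5). Among cells with Sox13, Etv5 was seen in 26.9%, 42.7% and 23.7% at 1000 UMIs and 65.7%, 67.1% and 70.3% unthinned. Tox2 was seen in 15.4% (first run) and 12.6% (the third) at 1000 UMIs and 24.5% (second) and 47.1% (the third) unthinned.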

Other observations

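Kept cells in clusters that received no name numbered 570, 1524 and 304 in the 3 runs and entered no comparison between named populations, though they are part of the gates. Their Sox13 levels were 44.0, 12.1 and 40.4 CPM and their Etv5 levels 34.04, 5.20 and 14.1 CPM. In the first run they also held 135 CPM of Tox and 18.8 CPM of Tox2, beside 43.8 and 1.68 CPM in DN3-like cells of that run. Cells with neither Trdc nor Trac UMIs (1161, 1000 and 1413) held 7.86, 11.1 and 11.99 CPM of Sox13.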
